A study of Mus musculus with 6 samples.

Results

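The genes described here are 8 members of the S100 family and 2 galectins, chosen by gene symbol: S100a1, S100a4, S100a6, S100a8, S100a9, S100a10, S100a11, S100a13, Lgals1 and Lgals3. All 10 were rows of a deposited table of 24421 rows of raw RNA-seq counts, and 8 of them passed the filter on low counts, as did 11805 rows in all. The table holds 6 libraries of group 2 innate lymphoid cells (ILC2), lymphocytes without antigen receptors that make type 2 cytokines. The cells were sorted from the brains of C57BL/6 mice by surface markers and grown for 2 weeks with fetal calf serum, stem cell factor (SCF) and the cytokines IL-33, IL-7 and IL-2. Donor mice were 20 to 22 months old in the old group and 2 to 3 months old in the young group, each with 3 libraries, and the labels name no other difference between them. The labels do not say whether libraries of a group came from separate mice or cultures, so each p-value reflects a spread among libraries that may be purely technical.

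S100 proteins are small EF-hand proteins that bind calcium, usually as dimers, and then attach to partners such as annexins and the cytoskeleton. Some, above all the S100a8 and S100a9 pair (calprotectin), are released by neutrophils and monocytes as alarm signals. Galectins bind galactose-containing sugars on glycoproteins, inside and outside the cell, and galectin-1 and galectin-3 are made by many activated leukocytes.

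Together the 10 genes took 2.38%, 2.55% and 2.495% of all counts in the old libraries and 1.46%, 1.32% and 1.55% in the young libraries. The shares did not overlap between the groups (2.47 ± 0.085% in old and 1.44 ± 0.115% in young libraries, SD, n = 3 each). An exact two-sided permutation gave p = 0.1, which is as low as 20 arrangements can go. Galectins made up 1.38 ± 0.039% and S100 genes 1.09 ± 0.046% of counts in old libraries, against 0.842 ± 0.058% and 0.597 ± 0.058% in young libraries (SD, n = 3 each). Of the 8 genes tested, 7 rose and none fell in old libraries by edgeR's quasi-likelihood test at an adjusted p under 0.05, and the median log2 change of the 8 was 1.07. Over all 11805 genes tested 19.4% were called, 11.2% higher and 8.14% lower, with a median log2 change of -0.10. In each of the 8 genes the libraries of the groups did not overlap, with 7 higher and 1 lower in old libraries. Such a separation held for 38.2% of all tested genes, 19.3% higher and 18.8% lower. The gene that did not pass, S100a1, was lower in old libraries (unadjusted p = 0.0110), and DESeq2 and limma-voom each called it.

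The 8 tested genes were short and abundant, and both properties went with higher calls across the table. All 8 lay in the shortest of 5 equal classes of tested genes by transcript length, in which 31.0% of genes were called higher in old libraries, with a median log2 change of 0.50. All 8 also lay in the most abundant of 5 equal classes, in which 35.1% were called higher. Of the 882 genes in both of these classes 56.6% were called higher and 23 genes were called lower, with a median log2 change of 0.62. The 7 higher calls of the 8 genes are to be read against that share. After a correction of each library for transcript length and GC content, 3 of the 8 were called higher (Lgals3, S100a4 and S100a10) and 2 lower (S100a1 and S100a13), and the calls of Lgals1, S100a6 and S100a11 were lost.

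**Figure D1:**
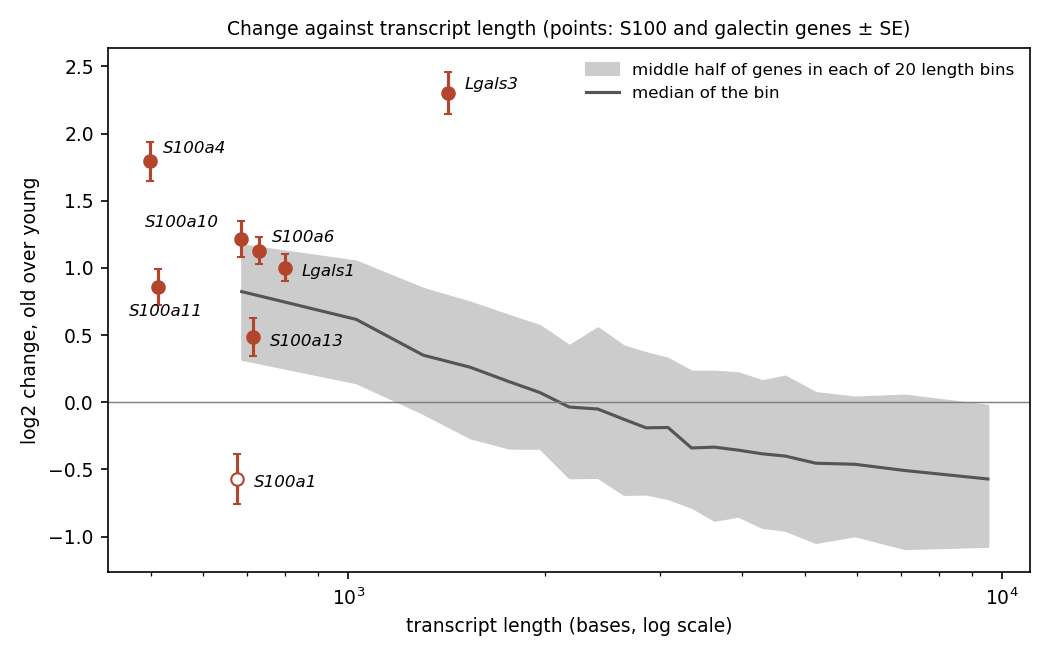
Fitted log2 change, old over young, against transcript length in bases (log axis); the line and band are the median and interquartile range of tested genes in 20 length bins, and points are the 8 tested S100 and galectin genes ± SE, filled where the adjusted p was under 0.05. Lgals3 lies above the band and S100a6, Lgals1 and S100a13 lie inside it, while S100a1, S100a4, S100a10 and S100a11 are shorter than 687 bases, the centre of the first bin, where the band starts.

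Lgals1 encodes galectin-1, a dimeric galectin known to act on lymphocyte survival and adhesion. The gene lies on chromosome 15 (78926725 to 78930465, GRCm38) and was at 12827, 14278 and 13925 CPM (counts scaled by TMM-adjusted library size) in old libraries and at 6755, 6231 and 7517 CPM in young libraries. Every old library was above every young one, and the log2 change was 1.001 ± 0.10 (SE; adjusted p = 8.02e-05, edgeR). Corrected for length and GC content, the log2 change was 0.09 ± 0.07 (adjusted p = 0.454, edgeR), and with library totals as the scaling it was 0.59 ± 0.08 (adjusted p = 0.00110, edgeR).

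Lgals3 encodes galectin-3, which has a single sugar-binding domain and assembles into larger complexes through its long N-terminal tail. Its gene on chromosome 14 (47367751 to 47386160, GRCm38) had the largest change of the 10, with 2518, 2569 and 1790 CPM in old libraries and 470.2, 416.2 and 508.0 CPM in young libraries. Old library 3 was the lowest of its group and still far above the highest young library. The log2 change was 2.30 ± 0.16 (SE; adjusted p = 7.17e-06, edgeR), at the 96.7 percentile of tested genes, and 1.78 ± 0.12 after the length and GC correction. Lgals3 passed the test as reported and in all 16 alternatives. The balance between the galectins also differed within libraries: Lgals3 was 16.4%, 15.2% and 11.4% of the Lgals1 and Lgals3 counts in old libraries and 6.51%, 6.26% and 6.33% in young libraries (two-sided exact permutation p = 0.1, the lowest possible here). The RefSeq promoter of Lgals3 (GRCm38.p6, plus strand, chr14:47373610-47373909) is printed because the gene changed most. Capitals mark the motifs found, GCGTG (part of hypoxia response elements) at position -90 and GC boxes (GGGCGG on either strand) at positions -7 and 5. Positions are counted from the RefSeq start, which lies inside the gene span given above and not at its beginning.
Lgals3: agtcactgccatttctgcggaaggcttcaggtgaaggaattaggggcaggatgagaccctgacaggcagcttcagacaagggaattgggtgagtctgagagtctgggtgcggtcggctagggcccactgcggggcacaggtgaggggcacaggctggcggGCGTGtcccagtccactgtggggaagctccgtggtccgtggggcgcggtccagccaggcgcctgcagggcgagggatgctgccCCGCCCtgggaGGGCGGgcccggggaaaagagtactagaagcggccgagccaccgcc

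**Figure D2:**
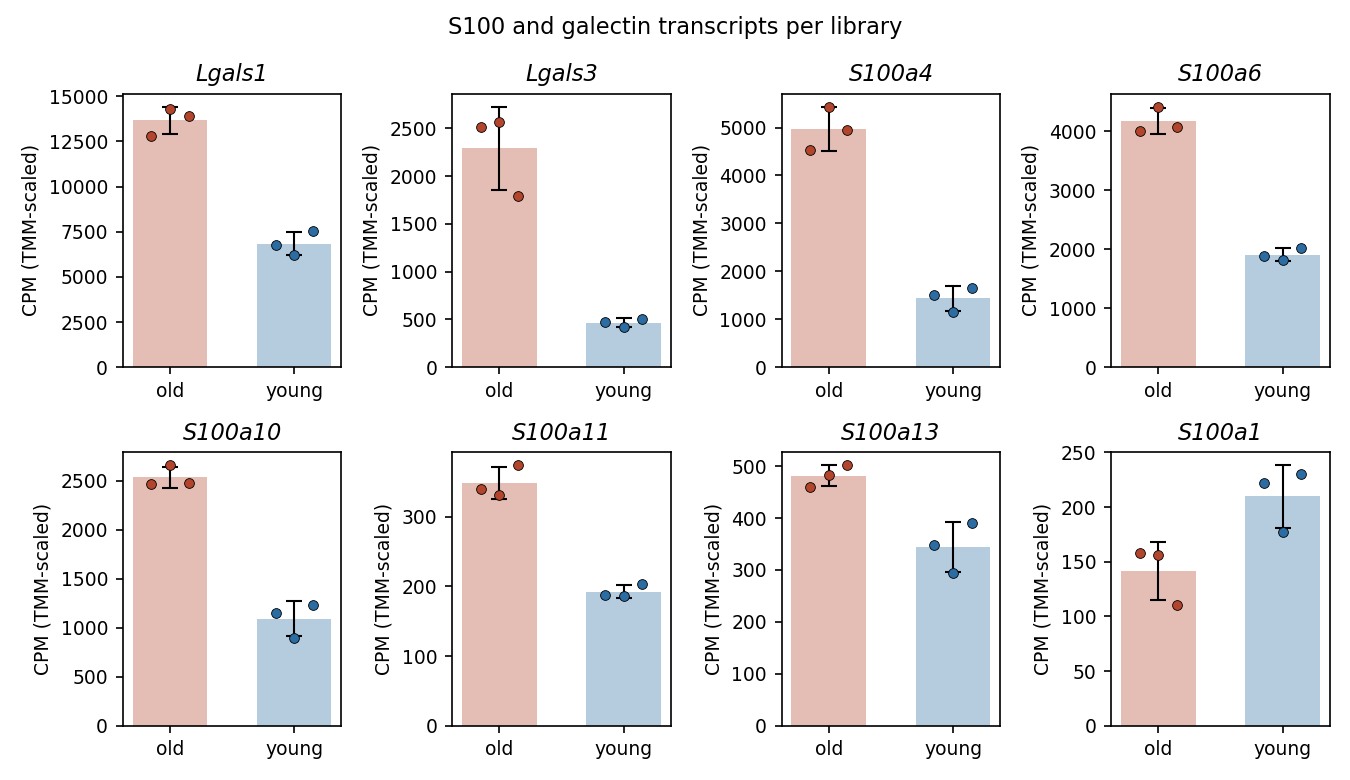
CPM on TMM-scaled library sizes for the 8 tested genes, old libraries left and young libraries right; points are single libraries, bars are means and whiskers are SD (n = 3 each). The groups do not overlap in any of the 8 panels, with S100a1 being the single gene that was lower in old libraries.

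S100a4 encodes a protein (also called metastasin or FSP1) that binds non-muscle myosin and is known from motile cells and fibroblasts. On chromosome 3 (90603771 to 90606045, GRCm38), it was at 4533, 5439 and 4945 CPM in old libraries and at 1502, 1153 and 1650 CPM in young libraries. Each old library was above every young one, with a log2 change of 1.79 ± 0.14 (SE; adjusted p = 1.52e-05, edgeR) and of 0.90 ± 0.09 after the length and GC correction, which kept the call (adjusted p = 0.000131, edgeR). Of its annotated exon length 51.7% is shared with a same-strand predicted gene, Gm42674, and 60.6% of its transcript matches that gene's transcript at 97% identity or more, so its counts are uncertain where reads were shared. Gm42674 has no row in the table.

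S100a6 encodes calcyclin, a partner of the calcyclin-binding protein Cacybp and common in proliferating cells. Its gene starts 6836 bases after the end of S100a4 (90612882 to 90624181) and was at 4009, 4418 and 4078 CPM in old libraries and at 1882, 1809 and 2026 CPM in young libraries. The groups stood apart, with a log2 change of 1.13 ± 0.10 (SE; adjusted p = 4.27e-05, edgeR) that was 0.18 ± 0.07 after the length and GC correction (adjusted p = 0.116, edgeR). The ratio of S100a4 to S100a6 counts, which no library scaling can move, was 1.13, 1.23 and 1.21 in old libraries and 0.798, 0.637 and 0.814 in young libraries. It did not overlap between the groups (two-sided exact permutation p = 0.1, the lowest possible here), so the change was unequal between these nearby genes, which have S100a5 between them. Their RefSeq promoters (GRCm38.p6, plus strand, chr3:90603520-90603819 for S100a4 and chr3:90612644-90612943 for S100a6) are printed for comparison, with motifs in capitals.
S100a4: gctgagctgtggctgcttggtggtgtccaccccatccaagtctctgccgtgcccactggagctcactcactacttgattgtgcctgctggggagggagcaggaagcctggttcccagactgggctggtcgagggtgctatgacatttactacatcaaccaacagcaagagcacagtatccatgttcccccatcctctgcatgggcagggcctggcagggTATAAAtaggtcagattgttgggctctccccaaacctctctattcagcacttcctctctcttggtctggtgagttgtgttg
S100a6: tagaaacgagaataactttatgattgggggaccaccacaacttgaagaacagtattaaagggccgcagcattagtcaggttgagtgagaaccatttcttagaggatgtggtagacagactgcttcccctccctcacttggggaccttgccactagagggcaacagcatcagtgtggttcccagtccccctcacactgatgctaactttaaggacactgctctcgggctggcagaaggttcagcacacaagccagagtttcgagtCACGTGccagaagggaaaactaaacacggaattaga
The S100a4 window holds a TATA box (TATAAA) at position -31, and the S100a6 window holds CACGTG, read as ACGTG on both strands, at positions 15 and 16. A TATAAA was present in 14.2% and an ACGTG or GCGTG in 43.8% of 27025 RefSeq promoters of the same length, searched on both strands.

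S100a10 (p11) and S100a11 bind annexins: S100a10 forms a complex with annexin A2, and S100a11 pairs with annexin A1. Both lie apart from the other S100 genes, with 2824766 bases between S100a9 and S100a11, S100a11 at 93520488 to 93526287 and S100a10 at 93555080 to 93564643 on chromosome 3, with 28792 bases between them. S100a10 was at 2467, 2659 and 2475 CPM in old libraries and at 1150, 893.0 and 1233 CPM in young libraries, so every old library was above every young one. Its log2 change was 1.21 ± 0.13 (SE; adjusted p = 0.000145, edgeR) and, with the call kept, 0.34 ± 0.09 once corrected for length and GC content (adjusted p = 0.0262, edgeR). S100a11 was at 339.6, 331.2 and 374.2 CPM in old libraries and at 188.3, 185.5 and 203.2 CPM in young libraries, again without overlap. Its log2 change of 0.86 ± 0.14 (SE; adjusted p = 0.00132, edgeR) was -0.057 ± 0.13 after the correction (adjusted p = 0.832, edgeR). In S100a11, 58.1% of the transcript matches processed pseudogenes (Gm12854 and Gm7665) at 97% identity or more, which leaves its counts uncertain.

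The S100a11 promoter from RefSeq (GRCm38.p6, plus strand, chr3:93520246-93520545) held the most motif matches of the 8 promoters in the table and is printed with them in capitals.
S100a11: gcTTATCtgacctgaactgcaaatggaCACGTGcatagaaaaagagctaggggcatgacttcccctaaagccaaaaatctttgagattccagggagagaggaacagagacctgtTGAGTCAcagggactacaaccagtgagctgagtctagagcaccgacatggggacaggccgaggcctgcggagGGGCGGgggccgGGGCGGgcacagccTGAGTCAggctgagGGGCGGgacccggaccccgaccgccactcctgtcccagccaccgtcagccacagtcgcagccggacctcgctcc
It has AP-1 motifs (TGANTCA) at positions -136 and -38, GC boxes (GGGCGG) at -64, -52 and -24, a CACGTG at -223 and -222 and a GATAA on the minus strand at -248. An AP-1 motif occurred in 7.93%, a GC box in 35.9% and GATAA in 25.8% of all promoters. Of the 8 promoters in the table, S100a11 was the single one with an AP-1 match and none held the NF-kB motif, which 0.385% of all promoters held. S100a10 and Lgals1 were not among the promoters used here.

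The annexin partners moved unevenly. Anxa2 was at 1723, 1970 and 1638 CPM in old libraries and at 297.8, 298.5 and 381.0 CPM in young libraries, a log2 change of 2.45 ± 0.14 (SE; adjusted p = 1.99e-06, edgeR) that was 2.00 ± 0.11 after the length and GC correction. Anxa2 therefore rose by more than its partner, and the ratio of S100a10 to Anxa2 counts was 1.43, 1.35 and 1.51 in old libraries and 3.86, 2.99 and 3.24 in young libraries (two-sided exact permutation p = 0.1, the lowest possible here). Anxa1, the partner of S100a11, was at 17.3, 4.85 and 9.08 CPM in old libraries and at 15.3, 2.65 and 25.01 CPM in young libraries, with overlapping groups and a log2 change of -0.46 ± 0.73 (SE) that did not pass. The table lists 12 annexins, of which 9 were tested, 2 rose and 1 fell, where 11.2% of all tested genes were called higher and 8.14% lower. The median log2 change of the tested annexins was 0.46. The other called annexins were Anxa5, which binds phosphatidylserine and rose by 0.62 ± 0.13, and Anxa6, a large annexin of membranes, which fell by 1.04 ± 0.20 on the log2 scale. Anxa5 lost its call without young library 1 (adjusted p = 0.0539, edgeR) and with library totals as the scaling (log2 change 0.20).

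**Figure D3:**
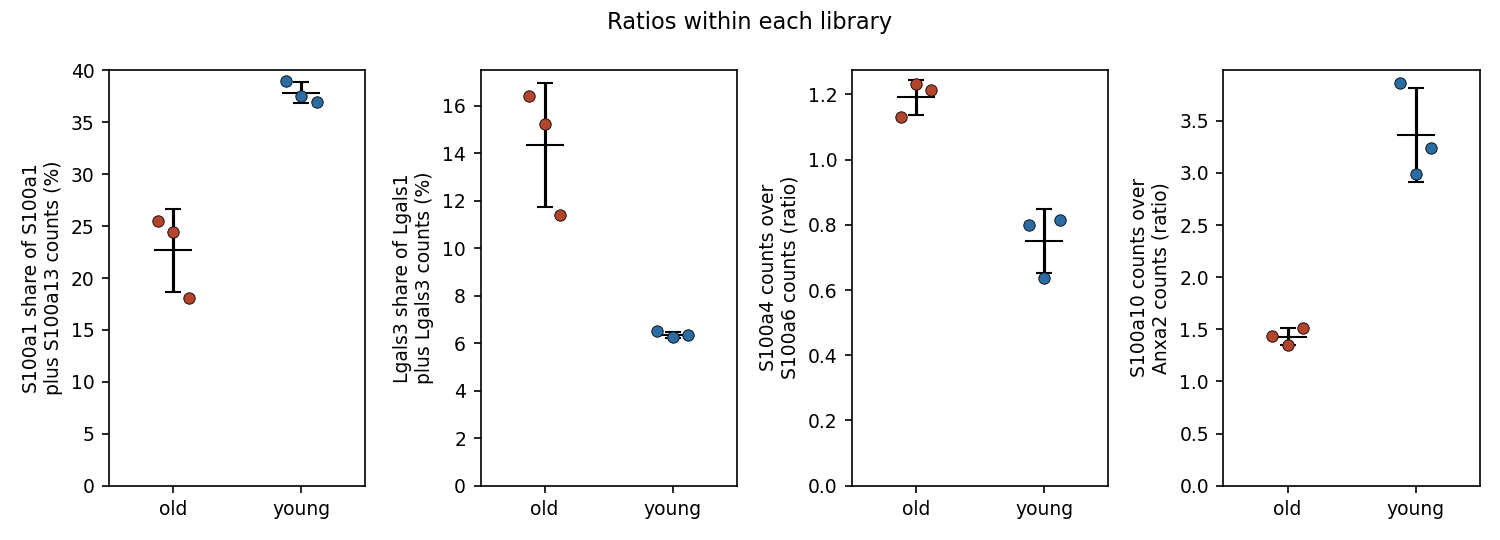
Ratios of counts within each library, old left and young right; points are libraries, and the horizontal mark and whiskers are the mean and SD (n = 3 each). In each of the 4 panels the groups are apart: the S100a1 share and the S100a10 to Anxa2 ratio are lower, and the Lgals3 share and the S100a4 to S100a6 ratio higher, in old libraries.

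S100a1 and S100a13 are neighbours that face away from each other on chromosome 3, and they did not move together. S100a1 is best known from heart muscle, where it regulates calcium handling, and S100a13 takes part in the release of proteins that lack a signal peptide, such as FGF1 and IL-1 alpha. Their annotated spans (chromosome 3, 90511034 to 90514392 on the minus strand and 90514435 to 90524581 on the plus strand, GRCm38) are 42 bases apart, and their RefSeq promoter windows share 204 bases. The S100a13 window (GRCm38.p6, plus strand, chr3:90514185-90514484) is printed with the shared stretch in capitals.
S100a13: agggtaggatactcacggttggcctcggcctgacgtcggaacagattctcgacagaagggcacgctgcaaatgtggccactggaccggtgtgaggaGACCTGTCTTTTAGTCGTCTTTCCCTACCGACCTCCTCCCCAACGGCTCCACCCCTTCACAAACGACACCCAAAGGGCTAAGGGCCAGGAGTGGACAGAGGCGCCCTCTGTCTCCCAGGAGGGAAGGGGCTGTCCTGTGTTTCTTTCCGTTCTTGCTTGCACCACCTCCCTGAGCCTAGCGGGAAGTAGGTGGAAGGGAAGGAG
Outside the capitals it holds a single motif match, CACGC at position -190, and the S100a1 window held no match to any of the 7 motif sets searched (AP-1, GATA, hypoxia response, C/EBP, NF-kB, GC box and TATA).

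S100a1 was at 157.8, 155.9 and 110.7 CPM in old libraries and at 222.3, 176.8 and 229.9 CPM in young libraries. Every old library was below every young one, but the log2 change of -0.57 ± 0.19 (SE) did not pass (adjusted p = 0.0553, edgeR). S100a1 was called lower in 6 of the 16 alternatives, by DESeq2, limma-voom, library totals, no filter and both length and GC corrections, and the corrected log2 change was -1.54 ± 0.16 (adjusted p = 0.000118, edgeR). Without old library 3, the lowest, its log2 change was -0.42 (adjusted p = 0.142, edgeR). S100a13 was at 460.1, 483.0 and 501.4 CPM in old libraries and at 347.6, 294.0 and 391.3 CPM in young libraries, with a log2 change of 0.48 ± 0.14 (SE; adjusted p = 0.0339, edgeR). That call was lost without any 1 of the old libraries or of young libraries 1 and 2 (adjusted p from 0.0692 to 0.125, edgeR) and with library totals, where the log2 change was 0.07. It turned to -0.47 ± 0.11 after the length and GC correction (adjusted p = 0.0173, edgeR), so the direction of S100a13 depends on that step.

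The balance within the pair does not depend on library scaling, and the transcripts are similar in length at 677 bases for S100a1 and 715 bases for S100a13. S100a1 made up 25.5%, 24.4% and 18.1% of the counts of the pair in old libraries and 39.0%, 37.6% and 37.0% in young libraries. The shares were 22.7 ± 4.01% in old and 37.9 ± 1.03% in young libraries (SD, n = 3 each), again with an exact permutation p of 0.1. All 3 old libraries were below all 3 young ones, with the old libraries spread more widely.

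**Figure D4:**
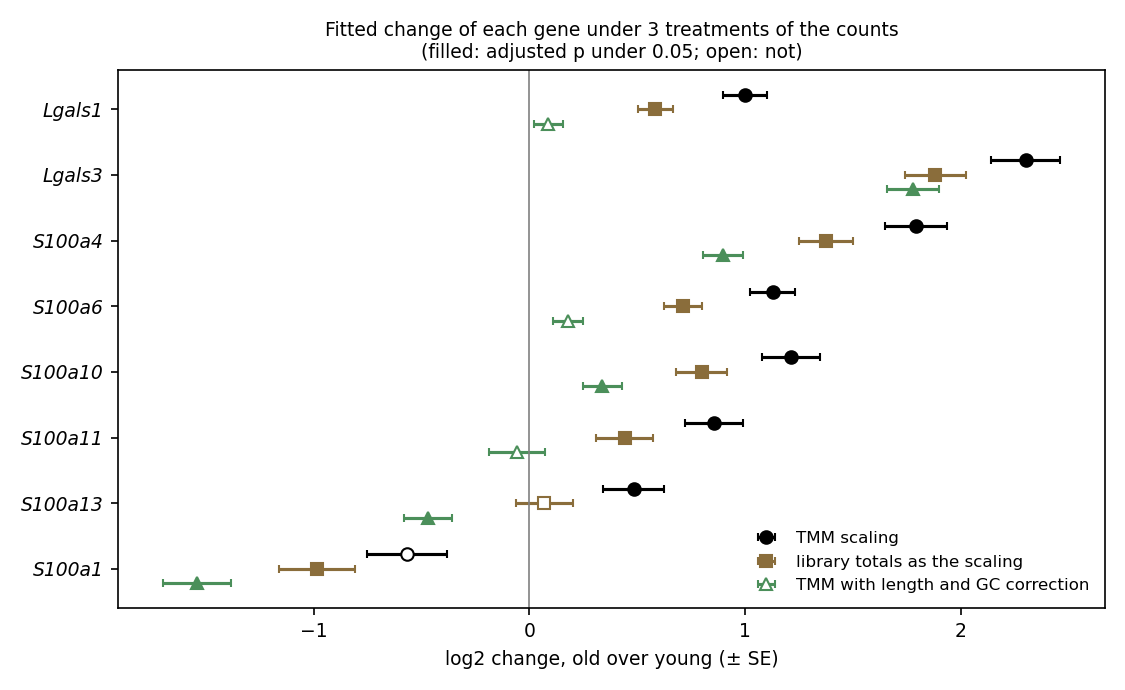
Fitted log2 change, old over young, with its SE for the 8 tested genes under TMM scaling (circles), library totals (squares) and TMM with the length and GC correction (triangles); filled marks had an adjusted p under 0.05. S100a13 changes sides between 0.48 and -0.47, S100a11 ends at -0.057, and Lgals3, S100a4 and S100a10 stay to the right of 0 and filled.

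S100a8 and S100a9, the subunits of calprotectin, had 0 counts in all 6 libraries. A floor of 3 counts per library allows at most 0.169 to 0.173 CPM of library totals in old libraries and 0.144 to 0.182 CPM in young libraries, which covers counting error only. Of 10 neutrophil markers 7 were also at 0 in every library, among them Elane, Mpo and Ltf, and the summed markers ran from 39.9 to 61.1 CPM of library totals in old and from 0.121 to 8.41 CPM in young libraries, most of it from Cxcr2, which rose. Other S100 genes were scarce as well: of the 9 listed, S100a7a, S100a14 and S100a16 were at 0, and S100b, the astrocyte S100 gene, had no more than 1 count in a library. S100a3 and S100a5, which flank S100a4, were tested. S100a5 was at 8.88, 2.63 and 3.49 CPM in old libraries and at 0.991, 0.326 and 0.407 CPM in young libraries, and S100a3 was at 3.71, 10.2 and 8.51 CPM in old libraries and at 0.209, 1.99 and 0 CPM in young libraries. Neither passed in edgeR (log2 changes of 3.11 ± 1.09 and 3.32 ± 1.36, SE; adjusted p = 0.0699 and 0.118), both had an unadjusted p under 0.05, DESeq2 called both and limma-voom neither. Without young library 2, S100a3 passed in edgeR (log2 change 6.09, adjusted p = 0.0282).

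**Figure D5:**
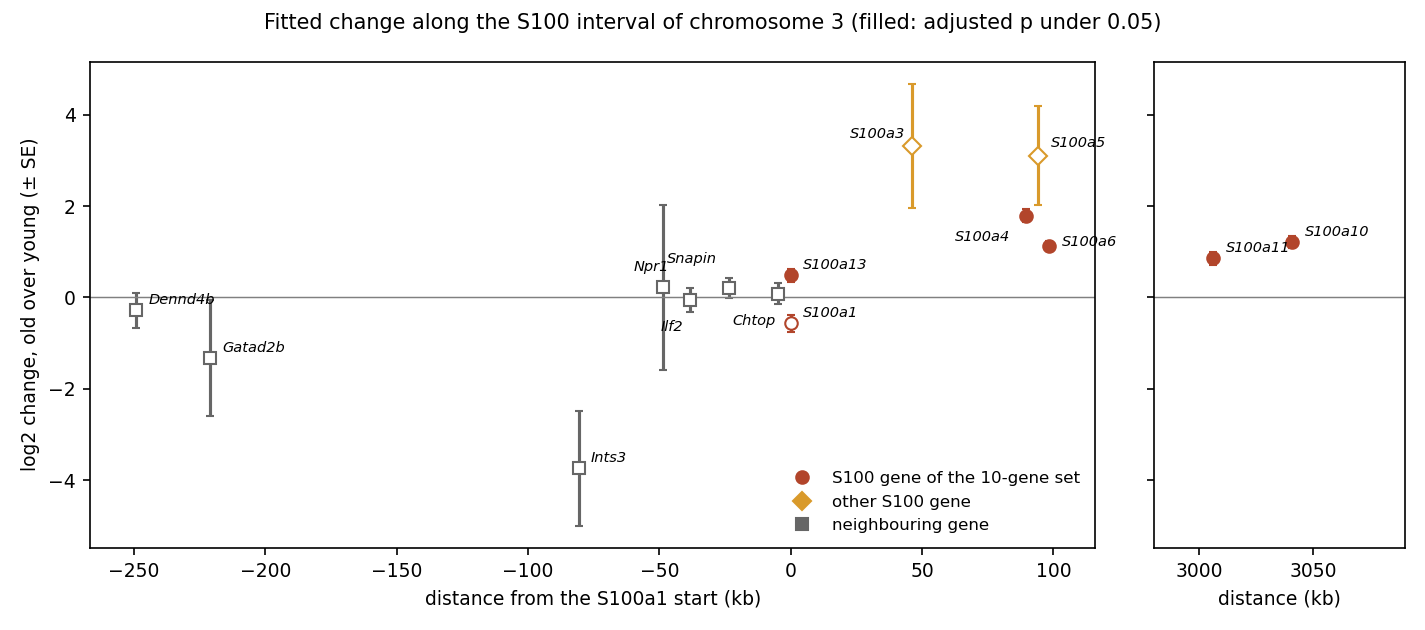
Fitted log2 change, old over young, with its SE against the distance in kb from the S100a1 start on chromosome 3, for tested S100 genes (circles), other S100 genes (diamonds) and neighbouring genes (squares); the right panel holds S100a11 and S100a10, and filled marks had an adjusted p under 0.05. All filled marks are S100 genes, and the 7 tested neighbours are open marks, all to the left of S100a1.

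No gene beside the S100 interval was called, among few genes tested, all of them on its S100a1 side. The listed gene beyond S100a9 had 0 counts in every library, so that side was not tested. The interval from S100a1 to S100a9 spans 184688 bases, and the table lists 10 other genes within 250 kb of it, of which 7 were tested and 0 called by edgeR, where 19.4% of all tested genes were called. Their median log2 change was -0.055. An unadjusted p under 0.05 was found for 1 of them, Ints3, a subunit gene of the Integrator complex, which was at 0, 0.202 and 2.60 CPM in old libraries and at 16.2, 16.9 and 4.83 CPM in young libraries (adjusted p = 0.0602, edgeR). DESeq2 called 1 neighbour and limma-voom 0.

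Levels were compared between genes after division by an annotated transcript length. The order is approximate, because changes went with transcript length across the table and the counts of S100a4 and S100a11 are uncertain. Per kb of transcript Lgals1 stood highest at 17096 ± 946.2 CPM per kb in old and 8542 ± 808.2 in young libraries (SD, n = 3 each). S100a4 followed at 9984 ± 910.7 CPM per kb in old and 2881 ± 512.6 in young libraries, then S100a6 at 5702 ± 299.99 and 2607 ± 151.1 and S100a10 at 3699 ± 159.3 and 1594 ± 259.0 CPM per kb. In old libraries Lgals3 came next at 1615 ± 307.2 CPM per kb, followed by S100a11 at 681.6 ± 44.6, S100a13 at 673.4 ± 28.9 and S100a1 at 209.0 ± 39.4. In young libraries the order of these was S100a13 at 481.5 ± 68.1, S100a11 at 376.3 ± 18.6, Lgals3 at 327.5 ± 32.5 and S100a1 at 309.7 ± 42.4 CPM per kb. Neighbours in the order whose libraries overlapped were S100a11 and S100a13 in old libraries, and S100a4 and S100a6 as well as Lgals3 and S100a1 in young libraries.

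No other galectin was called. The table lists 9, of which 4 were tested and 0 called by edgeR, DESeq2 or limma-voom, with 0 at an unadjusted p under 0.05. Lgals9, a galectin with paired sugar-binding domains, was at 254.0, 222.2 and 194.3 CPM in old libraries and at 158.3, 219.0 and 181.7 CPM in young libraries, a log2 change of 0.26 ± 0.17 (SE) that turned to -0.16 with library totals. Lgalsl, a galectin-like gene, was below 10 CPM in every library, with a log2 change of -0.64 ± 1.41 (SE).

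Receptors and partners of galectins and S100 proteins were called about as often as the 19.4% of all tested genes, with 2 of 13 and 2 of 10 called. Among 13 tested galectin receptors and partners, 1 rose and 1 fell, with a median log2 change of -0.12. Cd47, the surface ligand that restrains phagocytes, rose with a log2 change of 0.44 ± 0.13 (SE; adjusted p = 0.0328, edgeR), but lost its call without old library 2 or 3 or young library 1 or 2 (adjusted p from 0.0734 to 0.119, edgeR) and with library totals (log2 change 0.03). Pdcd6ip (Alix), a galectin-3 partner of membrane repair, fell to 39.6 ± 5.05 CPM in old libraries, against 98.0 ± 20.8 CPM in young libraries (SD, n = 3 each). Among 10 tested S100 receptors and partners, 1 rose and 1 fell, with a median of -0.32. Bsg, which encodes the calprotectin receptor CD147 (basigin) and is also a chaperone of lactate carriers, was at 3881, 4074 and 2647 CPM in old libraries and at 883.9, 773.8 and 909.2 CPM in young libraries (log2 change 2.05 ± 0.16, SE; adjusted p = 1.52e-05, edgeR). Stip1, a co-chaperone that S100 proteins bind, fell by 0.75 ± 0.17 on the log2 scale and lost its call without old library 2 (adjusted p = 0.0529, edgeR). Ager, the receptor RAGE, did not pass the filter on low counts.

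Enzymes that build the branched N-glycans bound by galectins included 4 that fell and 1 that rose of 13 tested, with a median log2 change of -0.28. Over all tested genes 8.14% were called lower and 11.2% higher, with a median of -0.10. Man2a2, a mannosidase that trims the core, fell to 27.2 ± 6.09 CPM in old libraries, against 84.0 ± 25.3 CPM in young libraries (SD, n = 3 each; adjusted p = 0.00268, edgeR). The branching enzyme genes Mgat4a, Mgat5 and Mgat4b fell by 1.59 ± 0.34, 1.52 ± 0.44 and 1.02 ± 0.28 on the log2 scale (SE). Except for Mgat4b at 2429 bases these transcripts are long, at 6554 bases for Man2a2, 7251 bases for Mgat4a and 8436 bases for Mgat5. Among tested genes in the longest of 5 equal length classes, from 4915 bases up, 277 of 2271 were called lower. The median log2 change of that class was -0.49. Corrected for length and GC content, Mgat5 was no longer called (log2 change -0.87, adjusted p = 0.184, edgeR). Mgat4b lost its call without any 1 of the old libraries or of young libraries 1 and 2, and Mgat5 without old library 1 or 2 or young library 1 or 2. The called rise was St3gal4, a sialyltransferase gene named after its value was seen, with a log2 change of 0.65 ± 0.19 (SE). It was not called with library totals, in either length and GC correction, or without any 1 of the old libraries or of young libraries 1 and 2.

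Of 14 tested EF-hand genes outside the S100 family, 4 were called higher and 0 lower by edgeR, against 11.2% higher and 8.14% lower over all tested genes. Many of the 14 are abundant, and in the most abundant of 5 equal classes of tested genes 35.1% were called higher. An unadjusted p under 0.05 was found for 8 of the 14. The median log2 change of the 14 was 0.24. The count of lower genes depended on the fit: library totals gave 2 higher and 4 lower, and DESeq2, limma-voom and no filter each gave 2 lower. Without old library 2 or young library 1 or 2, and after the length and GC correction, 2 were called higher. Calm2, which encodes the calcium sensor calmodulin, was at 1082, 1176 and 1023 CPM in old libraries and at 569.3, 404.5 and 593.7 CPM in young libraries (log2 change 1.07 ± 0.16, SE; adjusted p = 0.000854, edgeR). Sri, which encodes sorcin, rose by 0.94 ± 0.14. Calm3 and Cib1 rose by 0.60 ± 0.15 and 0.57 ± 0.16 but lost their calls with library totals and without single libraries, and after the length and GC correction Calm3 was at 0.39 (adjusted p = 0.212, edgeR) and Cib1 turned to -0.30.

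The genes whose pattern over the 6 libraries was most like that of Lgals3 were Mt1, Fth1 and Cox6a1, among 7432 genes with a mean of at least 10 CPM. Their Pearson correlations of log2 CPM with Lgals3 were 0.999 for each of the 3, as a description over 6 libraries in 2 separate groups, so the value mostly holds the group difference. Mt1, a metallothionein gene, was at 9755 ± 1894 CPM in old and 1217 ± 183.7 CPM in young libraries, and Fth1, the ferritin heavy chain gene, at 9651 ± 1429 and 2629 ± 266.9 CPM (SD, n = 3 each). Cox6a1, a respiratory chain subunit gene, was at 2139 ± 174.2 and 999.1 ± 60.5 CPM.

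Library totals ran from 16477157 to 20804291 counts. The first principal component of log2 CPM held 46.6% of the variance and separated the groups, and no library lay with the other group. Of 11 ILC2 markers all were detected, but 6 were called lower and 1 higher (Thy1) in old libraries. Rora, Il13, Il7r and Areg were not called, and Il7r and Areg each had a log2 change of 0.32. The marker sum ran from 5380 to 7427 CPM of library totals in old and from 11100 to 12152 CPM in young libraries, most of it from Il5 and Il2ra. Gata3, the lineage factor, had a log2 change of -1.11 ± 0.16, Il1rl1, the IL-33 receptor gene, of -0.82 ± 0.16 and Il5 of -0.72 ± 0.18 (SE), and Klrg1 had 0, 7 and 61 counts in old and 1467, 2026 and 1979 counts in young libraries. The part of this fall in the rise of the S100 and galectin genes was not tested. In all 6 libraries the markers of B cells and of NK cells and ILC1 were at 0, but several other lists were not. Dendritic cell markers summed to 270.1 to 297.1 CPM of library totals in old and 76.6 to 98.7 CPM in young libraries, mostly Batf3. Mast cell and basophil markers, mostly Mcpt8, ran from 163.3 to 282.9 CPM in old and from 269.8 to 312.1 CPM in young libraries. Astrocyte markers, mostly Aldoc, ran from 51.0 to 100.6 and from 6.51 to 13.5 CPM. The part of these lists in the rise was not tested. Lgals3 and S100a4 are also known from macrophages and fibroblasts, and values for those cells stand here beside their rise. Summed monocyte, macrophage and microglial markers ran from 56.0 to 86.4 CPM of library totals in old and from 12.8 to 26.5 CPM in young libraries, with Csf1r, C1qa and Fcgr1 of the 12 at 0. The list did not move as one, with 3 called higher (Tmem119, P2ry12 and Lyz2) and 1 lower (Adgre1). Tmem119 had most of the sum in old libraries, with 748, 1002 and 570 counts in old and 2, 47 and 0 counts in young libraries, whereas Adgre1, which encodes the macrophage antigen F4/80, had 0 counts in the 3 old and 79, 48 and 34 counts in the young libraries. Their part in the rise was not tested. Summed fibroblast markers ran from 0 to 0.113 CPM in old and from 9.61 to 17.7 CPM in young libraries, with Pdgfra at 0. Most of the young sum came from Dcn alone, with 287, 198 and 241 counts in young libraries and 0 in each old library. Col1a2 had 5, 2 and 14 counts and Col1a1 had 0 counts in young libraries. The part of fibroblasts in the S100a4 change was not tested. In bulk RNA a change in the number of cells of a type and a change in RNA per cell cannot be told apart.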

How the data were processed

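RNA from 6 libraries of cultured brain ILC2 was sequenced as single-end 75 bp reads. The authors deposited a table of raw counts per gene symbol; the submitters' processing notes name the build mm10 and the tools STAR 2.5.3a, bcl2fastq 2.20.0.422, DESeq2 1.1, Cufflinks 2.0 and FastQC 1.0.0. Neither counter, annotation nor strand setting is given in the sources used here, so reads of overlapping genes cannot be told apart. Of its rows, 27 carry symbols turned into dates (0.153% of counts); they stayed in the fit.

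Counts were tested in R 4.3.3 with edgeR 4.0.16 (filterByExpr, minimum count 10 and total 15; TMM scaling; glmQLFit and glmQLFTest; Benjamini-Hochberg over all genes, threshold 0.05), old over young. TMM factors ran from 0.840 to 0.885 in old and from 1.12 to 1.18 in young libraries. Alternatives used DESeq2 1.42.0, limma 3.58.1 (voom), other scalings and filters, left-out libraries, a replicate block and a length and GC correction of each library (mgcv 1.9.3). The edgeR step was checked on simulated counts. Single ratios were compared by exact permutation. Lengths and positions came from GENCODE vM21 (GRCm38) and promoters from RefSeq (GRCm38.p6), which matched 8 of the 10 genes. The genes and lists were chosen with earlier results of these data known. All 10 genes are named, and from each list up to 4 called genes of smallest p, or 2 where none was called. Anxa1, St3gal4, Ager, Ints3, S100b and the S100 genes at 0 are named outside this rule, after their values were seen. No 2 libraries agreed within sampling noise (chi-square over its degrees of freedom 35.8 or more).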

Additional observations from a re-analysis of the deposited data

How the results depend on the processing

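Of 128 values of the 8 tested S100 and galectin genes under 16 alternatives, 108 kept their direction and side of the threshold, 10 lost their call, 6 gained it and 4 changed sign. With the length and GC correction 3 of the genes were called higher and 2 lower, also with a replicate block added (3 and 2). S100a13 changed sign to -0.47 in both of these fits and S100a11 to -0.057 and -0.050. Lgals9 changed sign to -0.16 with library totals and to -0.065 and -0.062 in the corrected fits, and Cib1 to -0.30 in both of those. In DESeq2, limma-voom, no filter and library totals 1 gene of the set was called lower, S100a1, against 0 as reported.

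Library totals moved the median log2 change of all tested genes to -0.52 and the calls over all genes to 718 higher and 2380 lower, against 1325 and 961 with TMM; the same scaling gave 4 higher and 24 lower in the partner lists, against 9 and 7, and 1 lower neighbour. The split of calls was 23.2% higher with library totals, 49.5% with the length and GC correction and 58.0% as reported. The block with the correction gave 819 higher genes and 5 higher genes in the lists. The lists had 11 lower genes in limma-voom and 11 with no filter, and 1 neighbour was called lower by DESeq2 and by no filter. Without single libraries the calls ran from 915 to 1344 higher and from 399 to 849 lower over all genes, from 6 to 7 higher in the set, from 4 to 9 higher and from 4 to 9 lower in the lists, and from 0 to 1 lower among neighbours. The order of levels per kb was the same for all 10 genes with library totals. This is no test of the order, because a scaling multiplies all genes of a library alike.

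Deviations from the group means correlated by 0.0088 to 0.041 within a replicate number, none of 3 above 0.1. Between different numbers the correlations ran from -0.027 to 0.012, and 5 of 6 libraries correlated best with their own number. Values this small do not settle whether the numbers pair the libraries. The replicate block gave 1208 higher and 800 lower genes, 7 and 0 in the set. Mgat4b, Mgat5 and Cd47 lost their calls under it. With 3 libraries a group, smaller changes than those called can go undetected.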
